A study of Arabidopsis thaliana with 58 samples.

Results

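The cytosines described here lie just upstream of *FWA* (AT4G25530), in the first of 3 stretches of its promoter and start that were amplified from bisulfite-treated DNA of Arabidopsis thaliana. Members were all cytosines on the minus strand of chromosome 4 between 13038143 and 13038272 (TAIR10) that had at least 10 reads in every library, and 22 of the 74 cytosines that passed this minimum over the 3 regions belong to this first region. Of these 22, 3 are in CG and 19 in CHH context (H is A, C or T), and none is in CHG context. The other 52 cytosines, in regions 2 and 3, comprise 11 CG, 3 CHG and 38 CHH sites. One further minus-strand cytosine of region 1, at 13038143, had at most 9 reads and was left out.

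The study asked whether directing the enzyme that writes trimethylation of lysine 4 of histone H3 (H3K4me3) to a methylated gene removes its DNA methylation, and whether factors linked to H3K4me3 removal help new methylation. Region 1 was measured by BS-PCR-seq in 47 libraries from leaves, of which 45 fall into 13 groups by their labels. All plants are in the Col-0 ecotype, and all libraries are treated as separate plants or lines. Where nothing says that samples grew separately, p-values measure only the spread between these samples.

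Untransformed groups were Col-0 (n = 3), in which *FWA* is methylated, the unmethylated epiallele *fwa* (n = 3), *rdd* (n = 2), which lacks the demethylases ROS1, DML2 and DML3, *rdr6* (n = 2), a mutant in an RNA-dependent RNA polymerase used to reduce transgene silencing, and 1 *fwa rdr6* plant. SDG2-ZF is the catalytic domain of the H3K4 methyltransferase SDG2 joined to the zinc finger ZF108, which binds at *FWA*, under the UBQ10 promoter. It was measured in Col-0 (8 lines), *rdd* (8 lines) and *rdr6* (2 lines). SDG2cd(H1866K)-ZF (n = 4) carries a missense change in the catalytic domain, and its background, not named in the labels, is Col-0 by the figure legends. SunTag-SDG2, in which dCas9 with guide RNAs recruits the same domain through an antibody that binds repeats on dCas9, was measured in WT (2 lines) and *rdr6* (2 lines). A further 2 SunTag-SDG2 libraries have labels without a background and enter no comparison. The paper also describes a SunTag-SDG2 control without guide RNA, and whether these 2 libraries are that control was not established. dCAS9-MQ1 (n = 4) brings a variant of a bacterial CG methyltransferase to *FWA*, and TRBIP1-dCAS9-MQ1 (n = 4) adds TRBIP1, a protein related to H3K4me3 removal. The labels of these last 2 groups name no genetic background, while the methods describe transformation into *fwa rdr6*.

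In plants, CG methylation is copied at each DNA replication by a maintenance methyltransferase that reads the half-methylated site, whereas CHH methylation has no such symmetric partner and is placed anew by the RNA-directed pathway through DRM2 or by CMT2. The *FWA* gene encodes a homeodomain transcription factor that is silent in vegetative tissue while its promoter is methylated, and loss of this methylation gives a heritable, late-flowering epiallele. Demethylases of the ROS1 family cut out methylated cytosines in all contexts.

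Region 1 is intergenic and 130 bp long. Its far end is 217 bp and its near end 88 bp from the start of *FWA*, a plus-strand gene annotated from 13038360 to 13042464. The gene on its other side, SLK1 (AT4G25520), ends 1672 bp before it. The sequence is shown because the measured strand and the neighbourhood of each cytosine order the results. It was read from RefSeq assembly TAIR10.1, whose chromosome 4 carries the listed cytosines at the same positions. It is given 5′ to 3′ on the minus strand, so that its first base is 13038272, the base nearest to *FWA*. Capitals mark the 22 members in the first line and the 3 CG sites in the second.
Members, chr4:13038143-13038272, minus strand: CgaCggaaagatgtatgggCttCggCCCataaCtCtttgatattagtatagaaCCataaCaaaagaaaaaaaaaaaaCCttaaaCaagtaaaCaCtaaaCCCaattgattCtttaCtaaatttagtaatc
CG sites, chr4:13038143-13038272, minus strand: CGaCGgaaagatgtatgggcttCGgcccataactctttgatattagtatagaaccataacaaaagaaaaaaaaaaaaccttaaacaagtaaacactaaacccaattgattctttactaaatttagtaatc

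The 3 CG sites sit at the end nearest to *FWA*, at 13038272 (88 bp upstream of its start), 13038269 (91 bp) and 13038250 (110 bp). The CHH cytosines spread over the rest, and 6 of them, at 13038238, 13038240, 13038245, 13038246, 13038247 and 13038253, lie within 15 bp of a CG site. The CG site at 13038250 sits in the loop of a short inverted repeat with arms of 7 bases and a loop of 4 bases. The repeat holds 5 members and is shown because the most methylated CHH cytosines lie in it or beside it. Capitals mark the arms.
Inverted repeat, chr4:13038242-13038259, minus strand: TATGGGCttcgGCCCATA
A run of 12 bases that covers the CG site at 13038250 also occurs in the binding site of the reverse primer, just outside the measured stretch. Capitals mark the shared run.
Inside region 1, chr4:13038241-13038268, minus strand: ggaaagatGTATGGGCTTCGgcccataa
In the primer site, chr4:13038286-13038305, minus strand: GTATGGGCTTCGataaagaa

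Depth at the first CG site, 13038250, ranged from 22438 to 59050 reads in the 39 libraries of one set and from 711118 to 1029768 in the 8 libraries of a second, more deeply sequenced set that holds 2 Col-0, 2 *fwa* and the 4 SDG2cd(H1866K)-ZF plants. At the CG site nearest to *FWA* it was 10456 to 31895 and 415818 to 590982. All 86 pairs of libraries within groups differed by more than the sampling noise of their reads (chi-square over the 22 cytosines), so none was counted as a repeat deposit of another, although at this depth separate PCRs of 1 DNA could differ as much. The PCR products carry no molecular identifiers, several reads may stem from 1 molecule, and intervals therefore cover counting error only. For whole-genome libraries the methods describe discarding reads in which over 3 CHH cytosines in a row were methylated. Whether this step was applied to BS-PCR-seq is not given in the sources used here, and its effect on the neighbouring CHH cytosines from 13038238 to 13038247 was not tested.

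In Col-0 the 3 CG sites were almost fully methylated and CHH methylation was low and uneven. The CG site at 13038250 carried 83.6%, 87.8% and 88.7% in the 3 plants, the one at 13038269 carried 85.0%, 88.1% and 88.2%, and the one at 13038272 carried 93.4%, 93.7% and 94.8%. The site nearest to *FWA* was thus the highest in each plant. The mean over the 3 CG sites was 89.2% ± 1.71 (SD, n = 3) and that over the 19 CHH cytosines 3.97% ± 0.736 (SD, n = 3). The most methylated CHH cytosines of Col-0 were 13038246 with 14.9% ± 2.39, 13038253 with 11.6% ± 1.57 and 13038245 with 8.79% ± 1.17 (SD, n = 3). The order of these 3 cytosines among themselves held in each of the 3 plants, and their values ran from 12.9% to 17.5%, from 9.80% to 12.7% and from 7.48% to 9.74% without overlap. In plant 2 of the second library set, 13038171 and 13038240 were above 13038245, with 11.2% and 9.88% against 9.74%. The cytosines 13038246, 13038253 and 13038245 lie inside the inverted repeat. The lowest CHH cytosine, 13038173, was at 0.0954% ± 0.0163 (SD, n = 3).

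The grouping of CHH cytosines by distance to a CG site was chosen after the values were seen and is given as a description. In Col-0 the 6 CHH cytosines within 15 bp of a CG site averaged 8.67% ± 1.25 (SD, n = 3), and they held 65.0% to 75.4% of the summed CHH levels. The 5 cytosines in CAA or CTA, the trinucleotides at which CMT2 is known to act preferentially, averaged 3.50% ± 1.32, beside 4.13% at the other 14 CHH cytosines. Among them 13038171, far from any CG site, stood out with 5.21%, 6.74% and 11.2%.

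**Figure D1:**
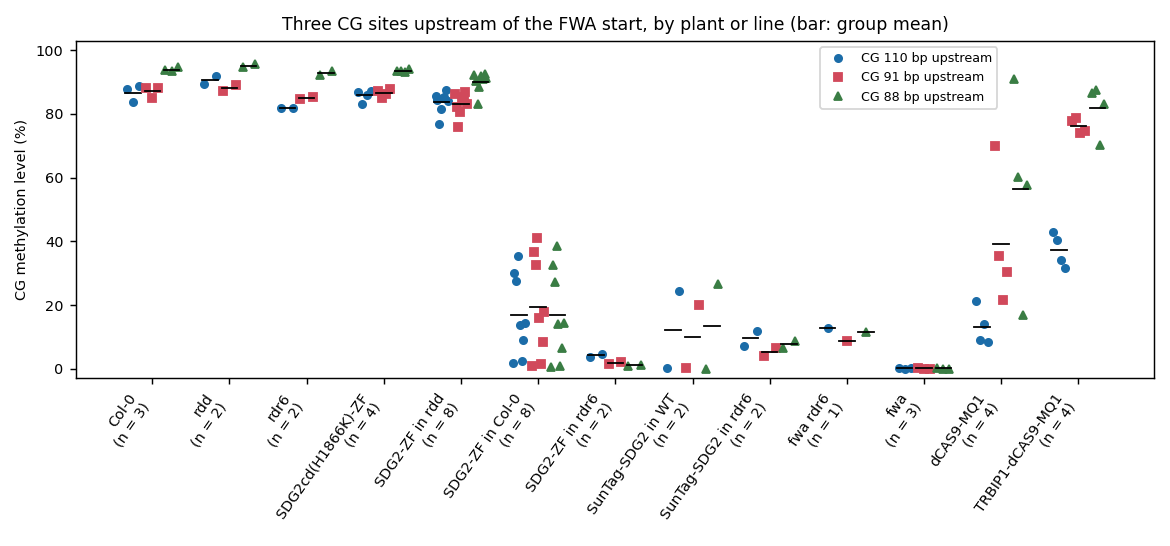
Methylation level in percent (y axis) of the 3 CG cytosines upstream of *FWA* in each plant or line of the 13 groups (x axis), with symbols for the 3 sites by their distance from the *FWA* start and bars for group means. Col-0 plants lie between 83.6% and 94.8% and the *fwa* plants below 1%, and SDG2-ZF in Col-0 lines spread from 0.641% to 41.1% while SDG2-ZF in *rdd* lines stay at 75.8% or above.

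The *fwa* epiallele gave the background of the assay. Mean CG methylation of its 3 plants was 0.175% ± 0.127 and mean CHH methylation 0.144% ± 0.007 (SD, n = 3), with 0.189% at the CHH cytosines near a CG site and 0.123% at the others. Of the 22 members, 3 CG and 17 CHH cytosines were lower in every *fwa* plant than in every Col-0 plant, where 97.3% of the 74 cytosines did so. No cytosine could be called by the exact permutation test, whose smallest possible p with 3 plants against 3 is 0.1. None had an unadjusted p under 0.05. A quasi-binomial model on the read counts called 21 of the 22 members and 73 of all 74 cytosines. The 1 *fwa rdr6* plant was above this background, with 12.7% at 13038250 (95% Wilson interval 12.4% to 13.0%), 8.67% at 13038269 (8.33% to 9.02%) and 11.4% at 13038272 (11% to 11.8%). Its CHH cytosines near a CG site averaged 5.05% and the others 0.271%. This plant has no replicate.

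Loss of the ROS1 family left CG methylation high and went with lower CHH values. In the 2 *rdd* plants the 3 CG sites averaged 91.3% ± 1.27 and the 19 CHH cytosines 2.56% ± 0.169 (SD, n = 2), beside 89.2% and 3.97% in Col-0. Both *rdd* plants were below all Col-0 plants at 16 of the 19 CHH cytosines, beside 45 of the 57 CHH cytosines over the 3 regions. Of all 74 cytosines 63.5% were lower without overlap and 12.2%, all of them CG sites, were higher. Both *rdd* plants belong to the first library set. Against its 1 Col-0 plant they differed by 1.47 points in mean CG and −1.10 points in mean CHH methylation. The CG site at 13038250, with 89.5% and 92.0%, was the 1 member above all Col-0 plants. Among CHH cytosines 13038246 differed most, with 10.5% and 9.71% in *rdd*. At 2 plants against 3 the exact test cannot go below 0.1, so it called nothing and none of the members had an unadjusted p under 0.05, and the quasi-binomial model called none either.

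In *rdr6* the CG sites averaged 86.6% ± 0.336 and the CHH cytosines 3.73% ± 0.489 (SD, n = 2). Values did not overlap with Col-0 at 4 members, beside 12.2% of all 74 cytosines, and no member was called by the exact test (none at an unadjusted p under 0.05, smallest possible p 0.1) or by the quasi-binomial model. The largest CHH difference was at 13038171, a CAA or CTA cytosine, with 10.5% and 11.4% in *rdr6* and a highest Col-0 value of 11.2%. That cytosine reached 73.6% to 101% of the level at 13038246 in *rdr6*, 36.2% to 63.7% in Col-0 and 39.4% and 40% in *rdd*.

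SDG2-ZF in Col-0 lines had lost most CG methylation, to a different extent in each line, while their CHH values next to the CG sites ran from below to far above those of Col-0. At 13038250 the 8 lines ranged from 1.93% to 35.3% with a median of 14.1%, and their mean was 16.8% ± 12.8 against 86.7% ± 2.69 in Col-0 (SD). At 13038269 they ranged from 0.747% to 41.1% with a median of 16.8%, a mean of 19.3% ± 15.8 against 87.1% ± 1.85. At 13038272 they ranged from 0.641% to 38.5% with a median of 14.3%, a mean of 16.9% ± 14.4 against 93.9% ± 0.762. At each of the 3 sites the highest line was far below the lowest Col-0 plant.

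The exact test called 4 of the 22 members lower in these lines than in Col-0, the 3 CG sites and the CHH cytosine 13038171, where 21.6% of the 74 cytosines were called, all of them lower. Over the 3 regions, all 14 CG sites and 1 of the 57 CHH cytosines were called, so these calls do not set the CG members apart. Each of the 4 members had p = 0.00606, the smallest that the exact permutation test of 8 lines against 3 plants can give. Their adjusted p in that test was 0.028. Adjusted within context, the 3 CG sites had 0.00606 and 13038171 had 0.345, which ends its call. Their place among the called cytosines rests on the number of controls: without any 1 of the Col-0 plants the exact test called 0 members, with adjusted p up to 0.103 at the CG sites and the same non-overlapping values. At 13038171 the lines ranged from 0.0924% to 3.52% with a median of 1.21%, and their mean was 1.55% ± 1.28 against 7.71% ± 3.09. This cytosine lies 79 bp from the nearest CG site of the region. Against the 1 Col-0 plant of the same library set, the lines differed by −72.2 points in mean CG and 3.03 points in mean CHH methylation.

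The mean over the 19 CHH cytosines ran from 1.20% to 14.6% in these lines, with 6.68% ± 4.77 (SD, n = 8) against 3.97% ± 0.736 in Col-0, a difference smaller than the spread between lines. Of the 8 lines, 5 were above all Col-0 plants and 2 below all of them. The largest CHH difference was at 13038247, next to the CG site at 13038250, where the lines ranged from 1.72% to 26.3% with a median of 13.1% and the Col-0 plants had 1.82%, 1.88% and 2.46%. The mean was 13.3% ± 9.22 against 2.05% ± 0.351 and the groups overlapped (exact permutation test, p = 0.0606, adjusted p = 0.214). The quasi-binomial model called 10 members and 22 of all 74 cytosines in this comparison. The 10 were the 3 CG sites, 6 CHH cytosines that were higher in the lines and 1 that was lower.

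The CHH profile had another shape in these lines than in Col-0, most clearly in the level of 13038171 relative to 13038246. The 6 CHH cytosines near a CG site averaged 16.4% ± 11.8, from 3.20% to 36.6%, against 8.67% ± 1.25 in Col-0, and the 5 CAA or CTA cytosines averaged 1.96% ± 1.42 against 3.50% ± 1.32. The near-CG cytosines held 75.7% to 83.9% of the summed CHH levels in every line, above the range of Col-0. The margin was narrow, since the Col-0 plant sequenced together with these lines had 75.4%. The lower Col-0 values, 67.8% and 65.0%, came from the more deeply sequenced libraries. This difference was thus not separated from library set. In the lines 13038171 reached 1.96% to 13.1% of the level at 13038246, against 36.2% to 63.7% in Col-0. In 7 of the 8 lines, all but line 15, the CHH cytosine 13038246 was more methylated than the mean of the 3 CG sites, with 50.0% in line 13, where the CG sites carried 30.2%, 36.6% and 32.7%. No Col-0 plant and none of the 8 SDG2-ZF in *rdd* lines, all with far higher CG levels, showed this order. It was seen in 12 of all 47 libraries. Besides the 7 lines these were 2 of 3 *fwa* plants, 1 of 2 SunTag-SDG2 in WT lines and both SDG2-ZF in *rdr6* lines. All of these others had little CG methylation. Neither SunTag-SDG2 in *rdr6* line showed it. The site 13038246 was the highest CHH cytosine in 37 of all 47 libraries.

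**Figure D2:**
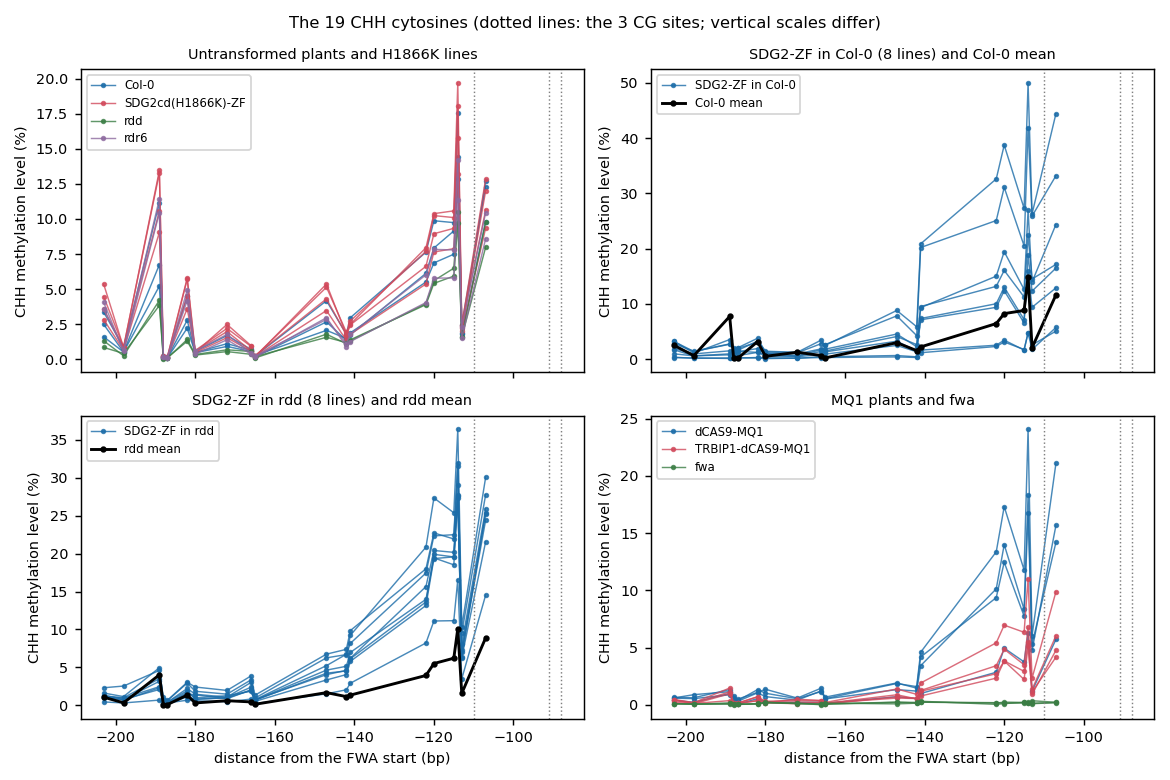
CHH methylation level in percent (y axes, with different scales) at the 19 CHH cytosines by distance from the *FWA* start in bp (x axis), as 1 line per plant in 4 panels: untransformed and SDG2cd(H1866K)-ZF plants, SDG2-ZF in Col-0, SDG2-ZF in *rdd*, and MQ1 plants with *fwa*. Black lines are the Col-0 and *rdd* means in the SDG2-ZF panels, with dotted vertical lines at the 3 CG sites. The high values cluster around the CG sites, where SDG2-ZF in Col-0 line 13 reaches 50.0%, and the peak at 13038171 of Col-0 is low in the SDG2-ZF lines.

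Over the 8 lines, mean CG and mean CHH methylation of region 1 were correlated. Pearson's r was 0.854 (exact permutation p = 0.00759, adjusted p = 0.00759) and Spearman's rho 0.905 (exact permutation p = 0.00456), and r was 0.978 without lines 13 and 15, the 2 lines farthest from the median CG level. CG methylation of region 1 also followed that of regions 2 and 3, with r = 0.982 (exact permutation p = 4.96e-05, adjusted p = 9.92e-05) and rho 0.976 (exact permutation p = 0.000397), and r = 0.989 without the same 2 lines. Both relations share libraries, and in the second the regions were amplified from the same DNA. These are the 2 relations computed.

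**Figure D3:**
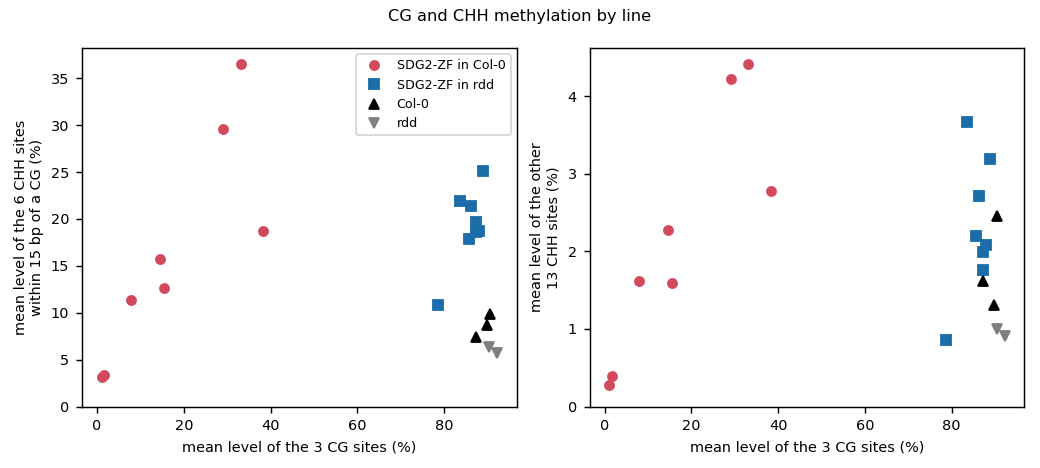
Mean level of the 3 CG sites in percent (x axes) against the mean level in percent (y axes) of the 6 CHH cytosines within 15 bp of a CG site (left) and of the other 13 (right), 1 point per plant or line and 1 symbol per group, for the SDG2-ZF lines and untransformed plants of both backgrounds. SDG2-ZF in Col-0 lines run from 1.11% to 38.3% CG with 3.20% to 36.6% at the near CHH cytosines, whereas SDG2-ZF in *rdd* lines sit at 78.6% to 89.0% CG with 10.8% to 25.1%.

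In *rdd* the same construct left CG methylation high and CHH methylation near the CG sites was higher than in untransformed *rdd*. At 13038250 the 8 SDG2-ZF in *rdd* lines ranged from 76.8% to 87.4% with a median of 84.7%, at 13038269 from 75.8% to 86.9% with a median of 84.1%, and at 13038272 from 83.2% to 92.6% with a median of 91.2%. All 8 lines were below both *rdd* plants at all 3 sites, as at 13.5% of the 74 cytosines and 9 of the 14 CG sites of the 3 regions. The differences were −7.0 points at 13038250 (exact permutation p = 0.0444, adjusted p = 0.0731), −4.96 at 13038269 and −4.91 at 13038272 (adjusted p = 0.124 for both), and none of the 3 was called. The comparison called 50% of the 74 cytosines. Called higher were 40.5% of the 74, which were 30 of the 57 CHH cytosines. All 8 called members were CHH cytosines that were higher: the 6 near a CG site, and 13038218 and 13038219.

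The largest difference was again at 13038246, with 16.6% to 36.4% and a median of 28.4% in the lines against 10.5% and 9.71% in *rdd*. Its mean was 28.5% ± 5.74 against 10.1% ± 0.534 (SD), with p = 0.0222, the smallest the exact permutation test of 8 against 2 can give, and an adjusted p of 0.0444. The lines did not overlap with *rdd* at any of the 8 called cytosines. These calls needed nearly all plants: without either *rdd* plant, or without any 1 of the lines 1, 7, 15, 18, 21, 24 and 30, 0 members were called, and without line 19, the line with the lowest CG and CHH levels, 13 were. The 6 near-CG cytosines averaged 19.2% ± 4.13 against 6.03%, whereas the 5 CAA or CTA cytosines averaged 2.35% ± 0.949 against 1.73%. At 13038171 the lines reached 4.09% to 14.5% of their level at 13038246. The quasi-binomial model called 6 members, all of them CHH cytosines that were higher, and 29 of all 74 cytosines.

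Set side by side, the SDG2-ZF lines of both backgrounds differed at all 3 CG sites and at 2 of the 19 CHH cytosines. The lines in Col-0 were below all lines in *rdd* at the 3 CG sites, with differences of −66.9 points at 13038250, −63.8 at 13038269 and −73.3 at 13038272 (exact permutation p = 0.000155, the smallest possible, adjusted p = 0.000821). In this comparison 35.1% of the 74 cytosines were called, 33.8% as lower and 1.35% as higher, and 18.9% did not overlap. The cytosines without overlap were the 14 CG sites of the 3 regions. All 14 were called lower, and 11 of the 57 CHH cytosines were called. Of the 22 members, 4 were called lower and 1 higher. The 2 CHH cytosines among them were 13038218, lower in Col-0 lines with 2.29% against 5.14% (exact permutation, adjusted p = 0.0361), and 13038173, higher with 1.15% against 0.373% (exact permutation, adjusted p = 0.0451). Among CHH cytosines the largest difference, −8.77 points at 13038245, was not called (exact permutation, adjusted p = 0.0709), and all 19 CHH cytosines overlapped. The 3 CG sites were the only members called without Col-0 line 5 or 9 or without *rdd* line 1, 7, 15, 18, 24 or 30, and 8 members were called without *rdd* line 19. Adjusted within context, the CHH cytosines 13038173 and 13038218 both had 0.0821 and were not called. Mean CHH methylation was 6.68% ± 4.77 and 7.66% ± 1.86 (SD, n = 8 each).

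The difference of the effects of SDG2-ZF in the 2 backgrounds was tested itself, by permuting the background after subtraction of the untransformed mean. It was called at 9 of the 22 members, where 63.5% of the 74 cytosines were called, 62.2% as lower and 1.35% as higher in Col-0. The called cytosines included all 14 CG sites and 31 of the 57 CHH cytosines of the 3 regions. The effect in Col-0 minus that in *rdd* was −62.9, −62.8 and −72.1 points at the CG sites 13038250, 13038269 and 13038272 (exact permutation, adjusted p = 0.000719). Among CHH cytosines it was lower at 13038171, 13038178, 13038188, 13038218 and 13038245, with differences of −11.4 to −1.13 points, and higher at 13038173, by 0.768 points. Without SDG2-ZF in Col-0 line 13 it was called at 14 members. Subtracting fixed control means leaves the error of the few control plants out of these p-values.

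In plants with the catalytic change, all 22 members overlapped with Col-0, where 12.2% of the 74 cytosines did not. The 4 SDG2cd(H1866K)-ZF plants carried 87.0%, 83.1%, 85.9% and 87.2% at 13038250, and their means minus those of Col-0 were −0.876 points at 13038250, −0.521 at 13038269 and −0.349 at 13038272. The 4 plants averaged 88.7% ± 1.10 CG and 4.71% ± 0.761 CHH methylation (SD, n = 4). At 13038171 they had 3.88 points more, the largest CHH difference, with 10.6%, 9.04%, 13.3% and 13.5% (exact permutation p = 0.143, adjusted p = 0.24). The exact test called no member and no cytosine, 0 members and 9.46% of all 74 had an unadjusted p under 0.05, and the quasi-binomial model called no member. Within the second library set, to which these 4 plants belong, the difference to the 2 Col-0 plants was −0.275 points in CG and 0.590 points in CHH methylation.

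Against these plants, SDG2-ZF in Col-0 lines were lower at the 3 CG sites, with differences of −69.0, −67.3 and −76.7 points (exact permutation p = 0.00202, adjusted p = 0.00831), and 9 of the 22 members were called, 7 lower and 2 higher, where 40.5% of all 74 were, 37.8% lower and 2.7% higher. Over the 3 regions the called cytosines included all 14 CG sites and 15 of the 57 CHH cytosines. The CHH cytosines 13038157, 13038171, 13038178 and 13038188, all in CAA or CTA, were lower in the SDG2-ZF lines, and 13038173 and 13038195 were higher. Without plant 3 or plant 4 of SDG2cd(H1866K)-ZF 5 members were called. Adjusted within context, 13038171 and 13038188 stayed called with the 3 CG sites and the other 4 CHH cytosines did not (0.0576 to 0.0658). At 13038247 the SDG2-ZF lines had 11.1 points more, the largest CHH difference, which was not called (exact permutation, adjusted p = 0.109). All SDG2-ZF lines belong to the first library set and all SDG2cd(H1866K)-ZF plants to the second, so library set and construct cannot be told apart here. This comparison shares its SDG2-ZF lines with those against Col-0 and *rdd* lines, and all comparisons with Col-0 share its 3 plants.

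**Figure D4:**
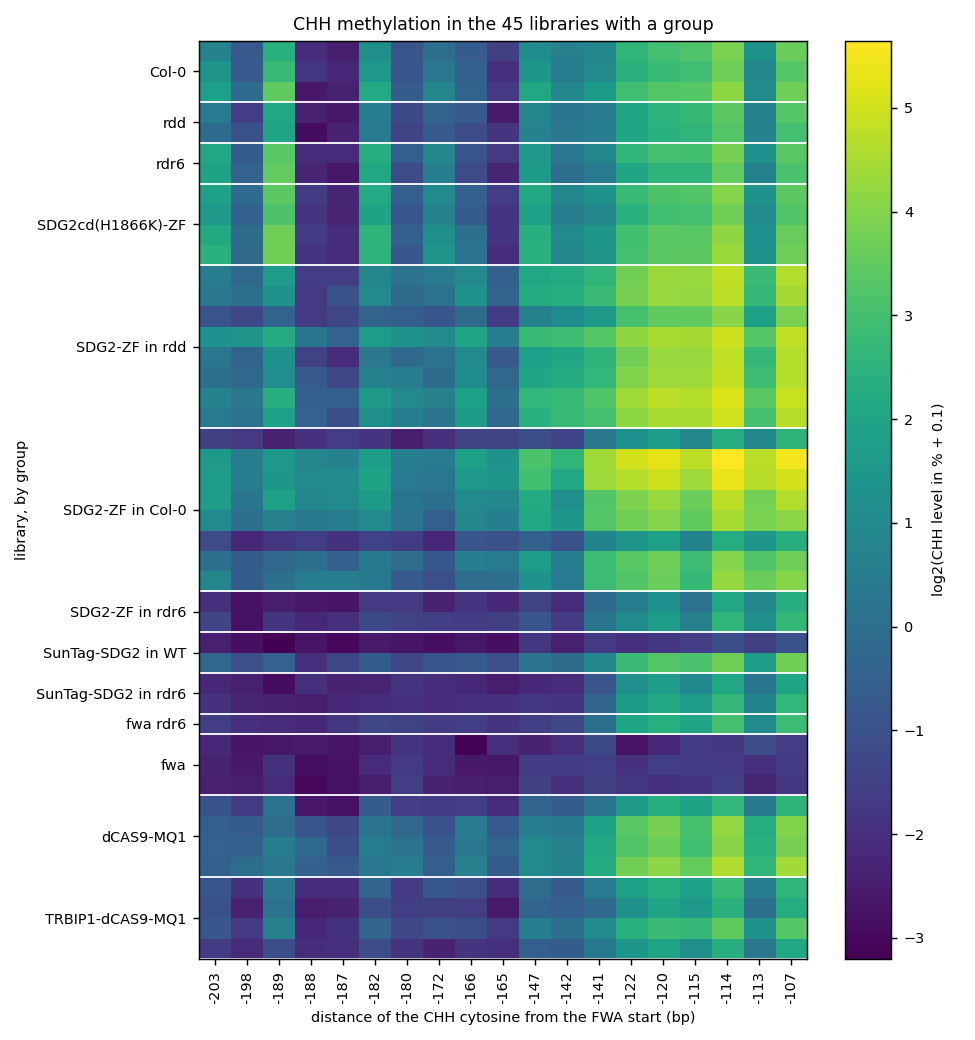
Colour scale of log2(CHH level in percent + 0.1) for the 19 CHH cytosines by distance from the *FWA* start in bp (x axis) in the 45 libraries with a group (y axis). The cytosines near the CG sites are the brightest in nearly all groups, *fwa* plants are dark throughout with a mean of 0.144%, and 13038171 is bright in Col-0, *rdr6* and SDG2cd(H1866K)-ZF plants.

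In *rdr6*, SDG2-ZF and SunTag-SDG2 lines were almost without CG methylation. SDG2-ZF in *rdr6* lines had mean CG levels of 2.09% and 2.73% and mean CHH levels of 0.944% and 1.33%, and SunTag-SDG2 in *rdr6* lines 5.98% and 9.09% CG and 0.949% and 1.41% CHH, against 86.6% CG and 3.73% CHH in *rdr6*. In both comparisons the 3 CG sites and 15 CHH cytosines were lower without overlap, beside 94.6% of the 74 cytosines, and the exact test of 2 against 2, which cannot go below 0.333, called none and left none at an unadjusted p under 0.05. The quasi-binomial model called 11 members in each, beside 56 of all 74 cytosines for SDG2-ZF and 61 for SunTag-SDG2. In both, the largest CHH difference was at 13038171, with 0.0815% and 0.174% in SDG2-ZF lines and 0.0337% and 0.0948% in SunTag-SDG2 lines. What remained lay around the CG sites, with 4.08% and 6.12% at 13038246 in the SDG2-ZF lines, where this CHH cytosine again exceeded the mean of the CG sites in both.

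The 2 SunTag-SDG2 in WT lines disagreed with each other. One had 0.177% CG and 0.135% CHH methylation, within the range of *fwa* plants for CG, and the other had 23.6% and 3.32%. Both lay below all Col-0 plants at the 3 CG sites and at 10 CHH cytosines, beside 70.3% of the 74 cytosines, and the exact test, with a smallest p of 0.1, and the quasi-binomial model called no member, with none at an unadjusted p under 0.05. Of the CHH cytosines 13038246 differed most, with 0.372% and 13.2% in the 2 lines. Without the second line the CG difference to Col-0 was −89.1 points and without the first −65.6.

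The constructs with MQ1 were compared with *fwa*, from which CG methylation is absent. The site nearest to *FWA*, 13038272, carried 91.1%, 60.1%, 16.9% and 57.6% in the 4 dCAS9-MQ1 plants and 86.6%, 87.4%, 70.1% and 83.2% in the 4 TRBIP1-dCAS9-MQ1 plants. At 13038269 the values were 70.0%, 35.3%, 21.7% and 30.4% without TRBIP1 and 77.8%, 78.6%, 74.0% and 74.7% with it. At 13038250 they were 21.3%, 9.11%, 14.0% and 8.39% without it and 43.0%, 40.5%, 34.1% and 31.5% with it. The site farthest from *FWA*, 13038250, was thus the lowest in all 8 plants.

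Both groups were above all *fwa* plants at the 3 CG sites and at 16 CHH cytosines, beside 50% of the 74 cytosines for dCAS9-MQ1 and 78.4% for TRBIP1-dCAS9-MQ1. Over the 3 regions all 14 CG sites were above *fwa* in both groups, with 22 of the 57 CHH cytosines for dCAS9-MQ1 and 42 for TRBIP1-dCAS9-MQ1. The exact test called no cytosine in either group. For dCAS9-MQ1 3 members had an unadjusted p under 0.05, out of 4.05% of all 74, and for TRBIP1-dCAS9-MQ1 11 members did, out of 29.7%, at an adjusted p of 0.0961. The quasi-binomial model called 21 members for dCAS9-MQ1, beside 24 of all 74 cytosines, and 20 for TRBIP1-dCAS9-MQ1, beside 67 of all 74. Mean CG methylation was 36.3% ± 18 in dCAS9-MQ1 and 65.1% ± 4.71 in TRBIP1-dCAS9-MQ1 plants (SD, n = 4 each). Within the first library set, with its 1 *fwa* plant, the differences to *fwa* were 36.0 and 64.8 points. The 1 *fwa rdr6* plant, of the background that the methods give for these plants, had a mean CG level of 10.9%, below all MQ1 plants, but its 12.7% at 13038250 was above dCAS9-MQ1 plants 2 and 4. Its mean CHH level of 1.78% was above dCAS9-MQ1 plant 1, with 1.58%, and above TRBIP1-dCAS9-MQ1 plants 1, 2 and 4, with 1.71%, 1.33% and 1.24%. With 1 such plant no test against this background was made.

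Between the constructs, TRBIP1-dCAS9-MQ1 plants were above all dCAS9-MQ1 plants at 2 of the 3 CG sites. Over the 3 regions this held at 5 of the 14 CG sites and at 13.5% of the 74 cytosines. The means were 37.3% against 13.2% at 13038250 and 76.3% against 39.3% at 13038269 (exact permutation p = 0.0286, the smallest possible for 4 against 4, adjusted p = 0.155 for both). At 13038272 they were 81.8% and 56.4%, and the plants overlapped (exact permutation p = 0.143). That difference of 25.4 points was 12.2 without dCAS9-MQ1 plant 3 and 37.0 without plant 1. No cytosine was called by the exact test, 14.9% of the 74 had an unadjusted p under 0.05, 3 members among them, and the quasi-binomial model called no member. The largest CHH difference was at 13038246, with 6.77%, 5.51%, 11% and 5.11% with TRBIP1 and 6.24%, 18.3%, 16.7% and 24.1% without it. All 19 CHH means were lower with TRBIP1, and the mean CHH level was 1.74% ± 0.652 against 4.03% ± 1.77 (SD, n = 4 each), with overlap between plants. The near-CG CHH cytosines averaged 4.48% ± 1.75 and 10.6% ± 4.79. Regions 2 and 3 went the other way, with a mean CHH level of 0.935% ± 0.984 with TRBIP1 against 0.229% ± 0.175 without it (SD), also with overlap. The median difference over all 57 CHH cytosines was 0.247 points, higher with TRBIP1.

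The 3 CG sites were also compared within plants, in 15 sign-permutation tests adjusted together. In SDG2-ZF in *rdd* lines 13038272 was above 13038250 by 6.41 ± 0.695 points and above 13038269 by 7.00 ± 1.08 points (SD, n = 8, higher in 8 of 8 lines, exact test p = 0.00781, adjusted p = 0.0391). In SDG2-ZF in Col-0 lines 13038272 was instead below 13038269 by 2.44 ± 1.80 points in 8 of 8 lines (exact test p = 0.00781, adjusted p = 0.0391), and the difference between the 2 groups of lines was not tested. All 4 plants of each MQ1 group had more methylation at 13038269 than at 13038250, by 26.1 points in dCAS9-MQ1 and 39.0 in TRBIP1-dCAS9-MQ1 plants, and at 13038272 than at 13038250, by 43.2 and 44.6 points, with an exact p of 0.125 that is the smallest possible for 4 plants. With any 1 line left out, the adjusted p of the 3 differences called in SDG2-ZF lines rose to 0.0781, with 7 lines too few to pass it.

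Region 1 was set against regions 2 and 3 in the same plants by giving each level as a percent of the mean of untransformed plants of the background, Col-0 or *rdd*, and of Col-0 for the MQ1 plants. In SDG2-ZF in Col-0 lines CHH methylation was at 168% of Col-0 in region 1 and 84.3% in regions 2 and 3, higher in region 1 in 8 of 8 lines by 84.1 ± 54.8 points (SD, exact sign-permutation p = 0.00781, adjusted p = 0.0391 over 10 tests). In SDG2-ZF in *rdd* lines it was at 299% and 215% of *rdd*, higher in region 1 in 8 of 8 lines by 84.0 ± 27.4 points (SD, exact p = 0.00781, adjusted p = 0.0391). With 1 of the 8 lines left out the adjusted p rose to at most 0.0781 and 0.0521. When medians over cytosines replaced means, these differences turned to −14.3 and −15.6 points, and as plain differences of levels they were 1.83 points (exact test, adjusted p = 0.0521) and 0.0218 points (exact test, adjusted p = 0.922).

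For CG methylation the differences between regions were smaller, with 19.8% against 14.6% of Col-0 in SDG2-ZF in Col-0 lines (higher in region 1 in 7 of 8 lines, exact p = 0.0156, adjusted p = 0.0521) and 93.8% against 91.1% of *rdd* in SDG2-ZF in *rdd* lines (7 of 8, exact p = 0.0234, adjusted p = 0.0586). In the MQ1 plants region 1 was the more methylated in 4 of 4 plants of both groups. CG methylation was at 40.7% of Col-0 in region 1 and 14.9% in regions 2 and 3 of dCAS9-MQ1 plants, and at 73.0% and 55.6% in TRBIP1-dCAS9-MQ1 plants. CHH methylation was at 102% and 3.97% in dCAS9-MQ1 plants, and at 43.7% and 16.2% in TRBIP1-dCAS9-MQ1 plants. SDG2cd(H1866K)-ZF plants went the other way for CHH, lower in region 1 by 27.5 points in 4 of 4 plants. With 4 plants the exact p cannot go below 0.125, which is the value of each of these tests. The excess in region 1 was not particular to the MQ1 plants. The 1 *fwa rdr6* plant had 12.2% against 4.85% of Col-0 for CG and 44.9% against 23.9% for CHH. As a percent of *rdr6*, CHH was 30.4% against 2.75% in SDG2-ZF and 31.6% against 3.51% in SunTag-SDG2 lines. CG was 2.78% against 4.94% in the former, the other way, and 8.70% against 1.66% in the latter. These smaller groups were not tested.

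**Figure D5:**
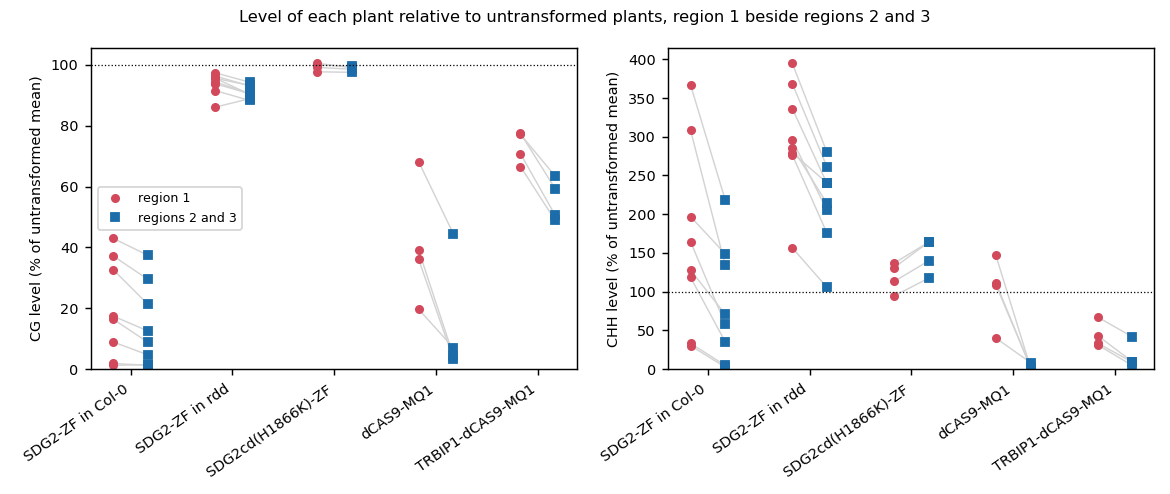
Methylation level as a percent of the mean of untransformed plants (y axes, with a dotted line at 100) for CG (left) and CHH (right), 1 point per plant, region 1 as circles and regions 2 and 3 as squares, by group (x axis). CHH circles lie above the squares in all SDG2-ZF in Col-0 lines (means 168% and 84.3%) and all dCAS9-MQ1 plants (means 102% and 3.97%).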

How the data were processed

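Leaf DNA was measured by bisulfite PCR sequencing (BS-PCR-seq), in which unmethylated cytosines are read as T. For each cytosine the deposited files hold 2 read counts, the C reads and the total of C and T reads, made by the authors with BSMAP 2.90 on TAIR10. For whole-genome libraries the methods give 2 allowed mismatches, 1 best hit and the discarding of reads with over 3 methylated CHH cytosines in a row, and whether the same held for BS-PCR-seq is not given in the sources used here. The fraction deposited beside the counts differed from C/(C + T) by less than 0.05 percentage points. Whether duplicate reads were removed is not given in the sources used here. Of the series, 47 BS-PCR-seq libraries were used, of which 45 had a group by their labels, and 11 whole-genome samples were not analysed here.

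Regions were taken as the stretches between the primers, none of which cover a measured cytosine. The level of a cytosine was C/(C + T) in percent, and group levels were unweighted means over cytosines, then plants. Each of 14 comparisons and the interaction of SDG2-ZF with *rdd* was tested at all 74 cytosines of regions 1 to 3 with a two-sided exact permutation test over plants, with Benjamini-Hochberg adjustment over the 74 and a threshold of 0.05. Within-plant contrasts used exact sign permutation. Tests of single cytosines were checked on simulated data in which cytosines were independent and lines spread less than SDG2-ZF in Col-0 lines did. The check covered some of the comparisons only, and the spread seen here was not simulated. The text names the 3 CG sites, the 3 highest and the lowest CHH cytosine of Col-0 and, per comparison, the CHH cytosine with the largest difference and any called one that went against the others' direction. Other named CHH cytosines were chosen after their values were seen. Members, lists and tests were chosen with earlier results of these data known.

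The 2 library sets were read from protocol text and depth. Same-numbered plants of different groups did not deviate together throughout, so numbers were not used as pairs. Alternatives tried were counts pooled over cytosines, medians over cytosines, a minimum of 100 or 5000 reads, the deposited fraction, controls of 1 library set, a quasi-binomial model on counts, adjustment within context, a threshold of 0.01, a replicate block and each plant left out. Calculations used Python 3.11.15, numpy 2.4.6, pandas 2.3.3 and scipy 1.17.1, and figures matplotlib 3.10.9.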

Additional observations from a re-analysis of the deposited data

Results flagged for a closer look

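Of 55 groups of values checked for a plant far from the others, 2 had one, where chance gives about 1 in 20. Both concern SDG2-ZF in *rdd* line 19, which had 83.2% at the CG site 13038272 while the other 7 lines had 88.6% to 92.6%, and 16.6% at the CHH cytosine 13038246 while the others had 27.3% to 36.4%.

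The effect of SDG2-ZF differed between the Col-0 and *rdd* backgrounds at 9 members in the exact permutation test of the difference itself. In that test 63.5% of the 74 cytosines were called. The effect in Col-0 minus that in *rdd* was −62.9 points at 13038250, −62.8 at 13038269 and −72.1 at 13038272, all with an adjusted p of 0.000719. Among CHH cytosines it was positive at 13038173, with 0.768 points. It was −5.11 points at 13038171, −1.86 at 13038178 and −1.13 at 13038188. Nearer to the CG sites, 13038218 had −3.24 points and 13038245 had −11.4 points.

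The 2 SunTag-SDG2 libraries without a background in their labels were methylated, with a mean CG level of 87.5% and a mean CHH level of 2.31% in the first and 86.7% and 3.28% in the second. Whether these plants carried guide RNAs was not established. The *fwa rdr6* plant had 10.9% CG and 1.78% CHH methylation. The highest *fwa* plant had 0.322% CG and the highest for CHH 0.152%.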

How the results depend on the processing

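Of all values recomputed under the alternatives, 1882 kept their direction and call, 60 counts or levels moved, 74 lost and 34 gained a call, and 9 reversed. Depth did not limit any member, since all 22 passed 5000 reads in every library (67 of 74 cytosines did). The number of plants did: in 2 or 3 plants against 2 or 3 the exact test cannot reach 0.05. The quasi-binomial model is not bound by the number of permutations, but it weights plants by their reads. Its Col-0 and *fwa* levels thus rest mostly on the more deeply sequenced plants of the second library set. It called 21 members (73 of all 74 cytosines) for *fwa* against Col-0 and 10 (22 of 74) for SDG2-ZF in Col-0 against Col-0. For SDG2-ZF and SunTag-SDG2 in *rdr6* it called 11 members each (56 and 61 of 74). Against *fwa* it called 21 members (24 of 74) for dCAS9-MQ1 and 20 (67 of 74) for TRBIP1-dCAS9-MQ1. Replicate numbers do not pair the plants, and with a replicate block (2 to 4 pairs, smallest p 0.125 to 0.5) 0 members were called in 5 comparisons, SDG2-ZF in Col-0 against *rdd* lines among them. The block gave a CHH difference of −0.00779 points for SDG2cd(H1866K)-ZF.

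Pooled counts moved the CG difference to −82.7 points for SDG2-ZF in *rdr6* and to 58.8 for TRBIP1-dCAS9-MQ1 against *fwa*. The median over cytosines gave CG differences of −87.1 (*fwa* against Col-0), −83.2 (SDG2-ZF in *rdr6*), −77.3 (SunTag-SDG2 in *rdr6*) and 75.2 points (TRBIP1-dCAS9-MQ1 against *fwa*). It gave CHH differences of −2.05 (*fwa*), 1.69 (SDG2-ZF in *rdd*), −1.66 and −1.75 (both *rdr6* groups), 1.01 and 0.51 (dCAS9-MQ1 and TRBIP1-dCAS9-MQ1 against *fwa*) and −0.496 points (between these). Controls of the first or of the second library set alone left 0 calls for SDG2-ZF in Col-0 against Col-0. Adjustment within context left 3 calls for SDG2-ZF in Col-0 against Col-0, 3 between the SDG2-ZF backgrounds, 5 against SDG2cd(H1866K)-ZF, and gave 3 for TRBIP1-dCAS9-MQ1 against *fwa*. An adjusted p under 0.01 left 0, 0, 3, 5 and 5 calls for SDG2-ZF in Col-0, in *rdd*, between them, against SDG2cd(H1866K)-ZF and in the interaction.

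For region 1 against regions 2 and 3, the CG difference passed the threshold with a minimum of 5000 reads (5.33 points in Col-0 and 4.87 in *rdd* lines) and with the median (6.00 and 2.98). The CHH difference reversed with the median (−14.3 and −15.6), was 1.83 and 0.0218 as plain levels, and lost its call with second-set controls in Col-0 lines (85.6). The cause was not tested.

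With each plant left out in turn, 0 to 4 members were called for SDG2-ZF in Col-0 against Col-0 (0 without any Col-0 plant), 0 to 13 for SDG2-ZF in *rdd* (13 without line 19 and 0 without any other plant), 3 to 8 between these lines, 5 to 9 against SDG2cd(H1866K)-ZF and 8 to 14 for the interaction. SunTag-SDG2 in WT differed from Col-0 by −89.1 to −65.6 points in CG and −3.83 to −0.645 in CHH. The difference between regions ran from 71.3 to 92.2 (CHH, Col-0 lines), 2.34 to 3.50 (CG, *rdd* lines) and 79.6 to 90.5 points (CHH, *rdd* lines). Small differences changed sign: *rdd* against Col-0 at 13038269 (−0.0342 to 2.00), SDG2cd(H1866K)-ZF against Col-0 at 13038250 (−2.40 to 0.114), 13038269 (−1.59 to 0.0358) and 13038272 (−0.646 to 0.0809), and 13038272 minus 13038250 in SDG2-ZF in Col-0 lines (−0.382 to 0.429).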
